A study of Mus musculus with 6 samples.

Results

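Fc receptors bind the constant end of antibodies and so link antibody to the cells that carry the receptor. The 10 mouse genes described here encode such receptors, their shared signalling chain or receptor-like relatives: Fcgr1, Fcgr2b, Fcgr3, Fcgr4, Fcer1g, Fcer2a, Fcrl1, Fcrl5, Fcmr and Fcgrt. They were chosen by gene symbol, and all 10 were found among the 50559 genes of the deposited table. RNA was sequenced from 6 mouse inguinal lymph node samples, 3 labelled Naringin and 3 labelled Control. The Naringin group received naringin, the bitter flavonoid of grapefruit, mixed into the daily food at a dose of 200 mg/kg per day. The Control group is labelled only as control. The sources used here give no strain, sex, age, genotype or length of feeding, and they do not say that each sample is a different mouse, so p-values measure only the spread between these samples, which may be partly technical.

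Fc receptors of myeloid cells mostly activate. Fcgr1 (CD64, the high-affinity IgG receptor), Fcgr3 and Fcgr4 signal through Fcer1g, the Fc receptor gamma chain, whose tail recruits the kinase Syk when antibody complexes cluster the receptors. Fcgr2b opposes them: its inhibitory tail recruits the phosphatase SHIP-1, and it is carried by B cells, by myeloid cells and by the follicular dendritic cells that hold immune complexes in lymph node follicles. B cells carry their own set, namely Fcer2a (CD23, the low-affinity IgE receptor), Fcmr (the IgM receptor) and the receptor-like proteins Fcrl1 and Fcrl5. Fcgrt, the neonatal Fc receptor, pairs with beta-2 microglobulin and returns IgG and albumin from endosomes to the blood.

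The promoters of the 4 genes of the myeloid group are shown first because these genes varied together between libraries, and that of Fcrl1 is shown because it is the more abundant of the 2 members whose groups did not overlap. Each line gives the 120 bases before the transcription start, 5′ to 3′ on the gene's own strand, from RefSeq on build GRCm38.p6. All 10 members matched an entry there, and for Fcgr3 the first of 2 listed starts is shown.
Fcgr1, chr3:96293970-96294089, minus strand: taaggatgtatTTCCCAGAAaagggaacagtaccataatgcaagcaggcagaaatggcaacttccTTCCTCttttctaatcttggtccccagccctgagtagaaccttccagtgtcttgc
Fcgr3, chr1:171059404-171059523, minus strand: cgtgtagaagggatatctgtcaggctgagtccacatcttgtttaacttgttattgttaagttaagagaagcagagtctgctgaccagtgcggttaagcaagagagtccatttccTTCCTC
Fcgr4, chr1:171018806-171018925, plus strand: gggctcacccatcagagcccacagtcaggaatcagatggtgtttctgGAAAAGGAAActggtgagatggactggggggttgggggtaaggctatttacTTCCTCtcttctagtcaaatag
Fcer1g, chr1:171234350-171234469, minus strand: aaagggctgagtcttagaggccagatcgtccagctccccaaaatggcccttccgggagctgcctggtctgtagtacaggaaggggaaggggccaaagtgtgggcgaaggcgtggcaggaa
Fcrl1, chr3:87376267-87376386, plus strand: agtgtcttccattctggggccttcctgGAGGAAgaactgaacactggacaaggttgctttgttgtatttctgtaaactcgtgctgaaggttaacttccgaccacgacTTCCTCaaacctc
Capitals mark matches to any of 3 motifs searched on both strands over the 250 bases before the start. GAGGAA is the core bound by PU.1, a transcription factor of myeloid and B cells, and reads TTCCTC on the other strand. TTCNNNGAA is the gamma-activated site of interferon gamma responses, and GAAA, any 2 bases and GAAA again is the core of the interferon-stimulated response element. No match overlapped another.

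GAGGAA was found in 3 of the 4 genes of the myeloid group (Fcgr1, Fcgr3 and Fcgr4), in 2 of the 4 B cell genes (Fcrl1 and Fcmr) and in neither Fcgr2b nor Fcgrt, against 25.9% of the 27025 genes with a promoter entry. The match lay 55 to 50 bases before the start in Fcgr1, 6 to 1 in Fcgr3 and 22 to 17 in Fcgr4. Fcgr1 was the 1 member with TTCNNNGAA, which 8.13% of genes hold, as the letters TTCCCAGAA at 109 to 101 bases before the start. In the human gene for this receptor a gamma-activated site and a PU.1 site are known in the promoter. Fcgr4 was the 1 member with the response element core, which 3.46% of genes hold. These matches describe letters only, not binding.

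Depth ranged between 13074180 and 14976422 gene reads per library, and values are CPM, the reads of a gene per 1000000 reads of its library. A single read was worth 0.0668 to 0.0765 CPM, so every member was well covered except Fcgr4, with 22 to 198 reads, and Fcrl5, with 63 to 148 reads. The B cell gene Ms4a1 lay between 363 and 573 CPM and the venule mucin Glycam1 between 159 and 481 CPM, both markers of the labelled tissue. Control 3 stood apart from the other libraries over all genes, with a chi-square per degree of freedom of 39.3 to 61.6 in its pairs and of 7.68 to 27.7 in the pairs without it. Naringin 1 and Control 3 were both high in myeloid content: the summed level of 11 macrophage markers was 3054 and 2937 CPM there, against 1103 to 2042 CPM in the other libraries. In bulk tissue, more cells of a type and more RNA per cell cannot be told apart. Fcgr2b and Fcgr3 have near-identical ligand-binding parts, and the sources used here do not say what was done with reads that fit both, so the split of reads between them is uncertain.

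Divided by exon length, the members spanned a wide range. Fcmr had the highest level per length, 187 ± 20.2 CPM per kb of exon with naringin and 173 ± 16.4 in Control (SD, n = 3 each), followed by Fcer2a with 144 ± 16.3 and 149.7 ± 21.2. Fcer1g had 98.5 ± 31.3 CPM per kb with naringin and 98.9 ± 36.9 in Control, which is more than Fcgr1, Fcgr3 or Fcgr4. Other receptors that pair with it were not put on this scale. Then came Fcgrt, Fcrl1, Fcgr3, Fcgr2b, Fcgr1, Fcgr4 and Fcrl5, the last with 2.66 ± 0.296 CPM per kb with naringin and 1.81 ± 0.410 in Control. Of the 9 neighbouring pairs in this order, the ranges over the 6 libraries were apart in 2, Fcer1g over Fcgrt and Fcrl1 over Fcgr3, and the other 7 pairs were not ordered beyond their spread. The length is the union of all annotated exons, which is long for Fcgr2b (5790 bases) and lowers its level per length.

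With naringin, 0 of the 10 members passed an adjusted p of 0.05 in limma, a linear model fitted to log2(CPM + 1) of the 14873 genes that averaged 1 CPM or more. All 10 members were tested, each with a limma adjusted p of 0.9996, and the share of tested genes that passed was 0%. At an unadjusted p under 0.05 there was 1 member, Fcrl5, against 1.43% of all tested genes (213 genes). Leaving out Control 3 raised that count of genes to 1402, leaving out Naringin 3 gave 515, and leaving out Naringin 2 gave 72. edgeR on the reads recovered from the table also called 0 genes, and DESeq2 called 3, none of them a member. The log2 fold, naringin minus control, was above 0 in 8 of the 10 members, against 56.7% of tested genes, with a median of 0.18 against 0.02. Fold changes are on the log2(CPM + 1) scale unless another pseudocount or a count test is named, and that scale understates the change of low genes.

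**Figure D1:**
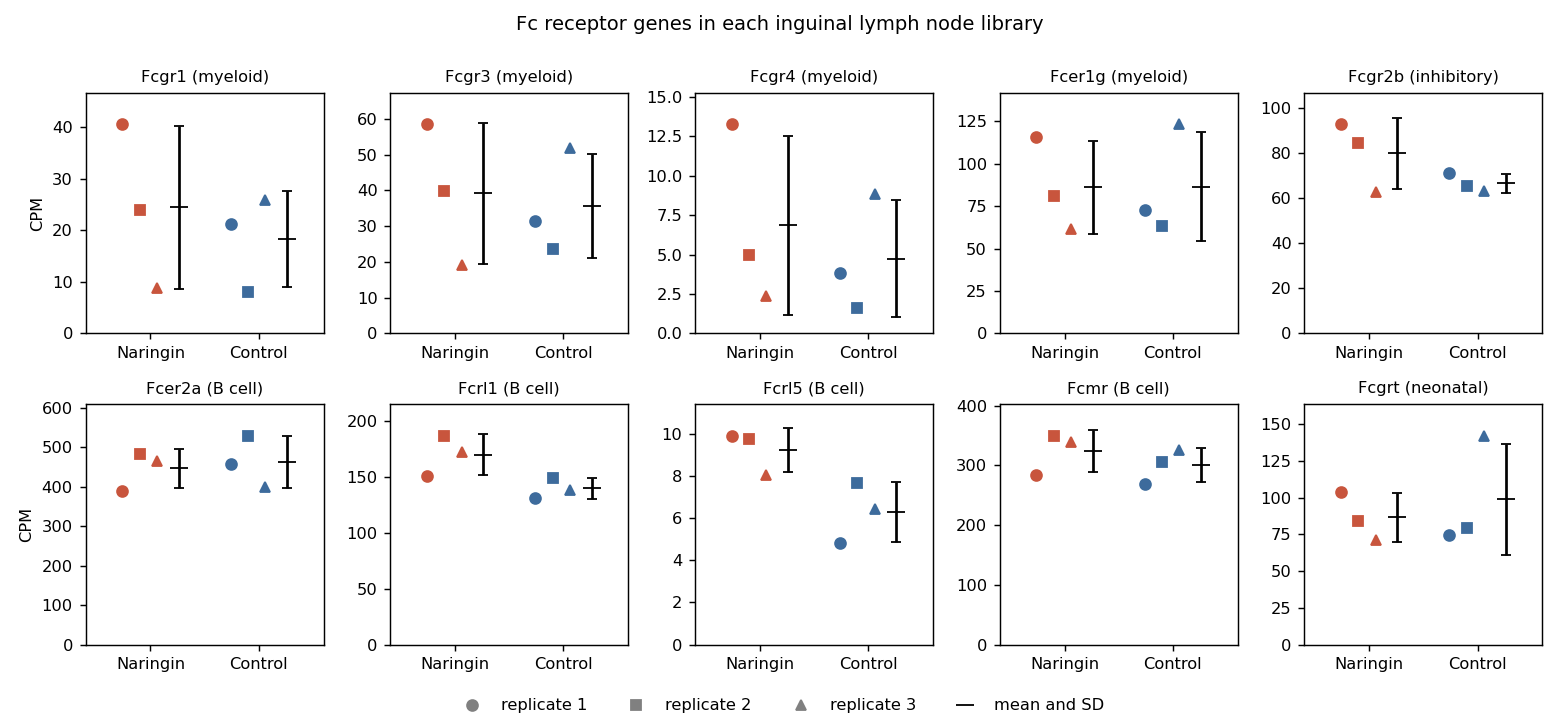
CPM of each of the 10 Fc receptor genes in each library, Naringin left and Control right, with the mean and SD of 3 libraries beside the points and each vertical axis starting at 0. Fcrl1 and Fcrl5 are the panels in which the groups do not overlap, and in the panels of the myeloid group Naringin 1 and Control 3 are the high points.

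Among the activating receptors, the libraries of a group differed more than the groups did. Fcgr1 had 40.5, 23.9 and 8.83 CPM in Naringin 1, 2 and 3, against 21.1, 7.95 and 25.8 CPM in Control 1, 2 and 3. Naringin 1 was highest and Control 2 lowest, a 5.10-fold span, and the groups overlapped. The log2 fold was 0.31 ± 0.56 (SE), with a 95% interval of -0.97 to 1.59. Fcgr4, the mouse receptor with a preference for IgG2 subclasses, had 13.3, 4.94 and 2.38 CPM with naringin and 3.82, 1.59 and 8.82 CPM in Control. Its span was the widest of the members, 8.34-fold, and its groups overlapped too. The log2 fold was 0.41 ± 0.60 (SE), with an interval of -0.96 to 1.78.

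Fcgr3, the low-affinity activating IgG receptor of myeloid and natural killer cells, had 58.5, 39.9 and 19.1 CPM with naringin, against 31.5, 23.6 and 51.9 CPM in Control. Fcer1g, the gamma chain, had 115.6, 80.9 and 61.7 CPM with naringin and 72.7, 63.3 and 123 CPM in Control. In both genes Naringin 1 and Control 3 were high and Naringin 3 was lowest. The mean of Fcer1g was 86.1 ± 27.3 CPM with naringin and 86.4 ± 32.2 CPM in Control (SD, n = 3 each), and its log2 fold was 0.0082 ± 0.29 (SE), with an interval of -0.66 to 0.68. That of Fcgr3 was 0.07 ± 0.41 (SE), with an interval of -0.86 to 1.00. These intervals span both directions, so a change of a size within them was not excluded with 3 libraries a group.

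The direction of all 4 folds depended on single libraries. Without Control 2 the log2 folds were -0.17 for Fcgr1, -0.18 for Fcgr3, -0.06 for Fcgr4 and -0.18 for Fcer1g. Without Naringin 1 they were -0.16, -0.28, -0.15 and -0.23 in the same order of genes. Fcgr3 was also at -0.01 without Naringin 2, and Fcer1g at -0.08 without Control 1. The fold of Fcer1g turned below 0 under upper-quartile scaling (-0.04) and median-of-ratios scaling (-0.0095), and in both count tests. Without Naringin 3, Fcgr1 and Fcgr4 were at 0.88 and 0.89, and without Control 3 at 0.62 and 0.90.

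The order of the libraries was nearly the same in these 4 genes. Naringin 1 and Control 3 were the highest 2 libraries in 4 of 4, Naringin 2 came next and Control 1 after it, and Naringin 3 and Control 2 were the lowest 2. The summed markers of macrophages, monocytes, neutrophils and mast cells were also highest in Naringin 1 and Control 3. So were those of plasma cells (345 and 435 CPM), follicular dendritic cells (2948 CPM in each) and, narrowly, dendritic cells (264 and 262 CPM). The order was therefore not particular to myeloid markers. The sums of B cell, T cell, natural killer cell, endothelial and adipocyte markers did not share it. Not every single marker shared this. Ccr2 and Kit were lowest in Control 3, and Cxcr2 and Siglec1 were higher in Naringin 2 than in Control 3. The monocyte sum is led by Lyz2, at 2019.7 to 3502.5 CPM. The summed macrophage markers were 3054, 2042 and 1103 CPM in Naringin 1, 2 and 3, against 1420, 1586 and 2937 CPM in Control 1, 2 and 3. The 5 monocyte markers summed to 3838, 3298 and 2380 CPM with naringin, against 2486, 2516 and 4009 CPM in Control, and monocytes carry these receptors. The 7 neutrophil markers summed to 280.3, 138 and 52.3 CPM with naringin, against 58.2, 60.1 and 237 CPM in Control. The 5 mast cell markers summed to 304, 258 and 47.6 CPM with naringin and 78.6, 124 and 366 CPM in Control. Of the macrophage list, 9 of 11 genes reached a mean of 1 CPM. Vsig4 had 1 read in all, Cd163 lay at 1.34 CPM or less, and the neutrophil marker Ly6g at 0.936 CPM or less. The part of these cells in the receptor levels was not tested for monocytes, neutrophils, mast cells, plasma cells, follicular dendritic cells and dendritic cells. With the macrophage marker level as a covariate, chosen after seeing the data, the log2 folds were 0.32 for Fcgr1, 0.08 for Fcgr3, 0.42 for Fcgr4 and 0.01 for Fcer1g, and none passed. With the B cell marker level as a covariate, also chosen after seeing the data, they were 1.11 for Fcgr1, 0.65 for Fcgr3, 1.42 for Fcgr4 and 0.48 for Fcer1g. The unadjusted limma p was then 0.0497, 0.0968, 0.00496 and 0.0403 in the same order of genes, and the adjusted p was 0.99 for each. In that fit 451 of all 14873 tested genes had an unadjusted limma p under 0.05, against 213 without the covariate.

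**Figure D2:**
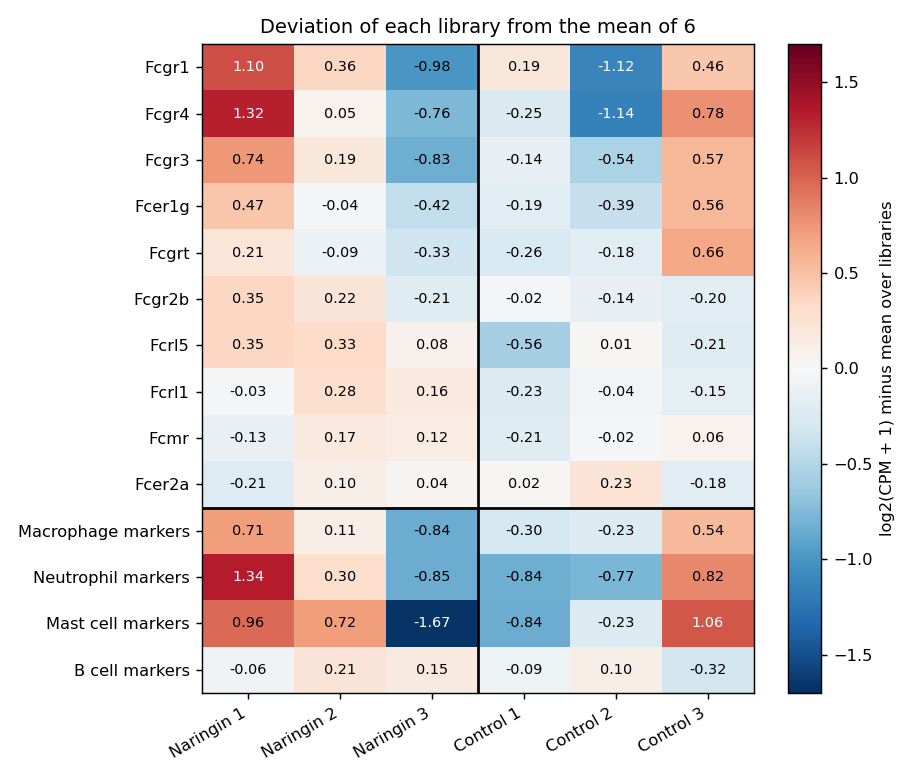
Deviation of each library from the mean of the 6 libraries on the log2(CPM + 1) scale, for the 10 genes and, below the line, for the mean of the tested macrophage, neutrophil, mast cell and B cell markers, with Naringin in the left columns and Control in the right. Fcgr1 runs between 1.10 in Naringin 1 and -1.12 in Control 2, while Fcer2a stays between -0.21 and 0.23.

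Set against the summed macrophage markers, the 4 genes of the myeloid group varied less between libraries. Their summed CPM ran from 92.0 to 228 CPM, a 2.48-fold span, and its ratio to the macrophage markers from 0.0609 to 0.0909, a 1.49-fold span. That ratio was 0.0746, 0.0733 and 0.0835 in Naringin 1, 2 and 3, and 0.0909, 0.0609 and 0.0714 in Control 1, 2 and 3, and the groups overlapped. The ratio of Fcgr4 alone still spanned 4.33-fold and that of Fcgr1 2.97-fold.

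Fcgr2b, the inhibitory receptor, had 92.6, 84.2 and 62.4 CPM with naringin, against 71.1, 65.5 and 62.9 CPM in Control. Naringin 1 and 2 lay above every control library and Naringin 3 below every one. The log2 fold was 0.24 ± 0.16 (SE), with a 95% interval of -0.13 to 0.62, and it was 0.12 without Naringin 1 and 0.41 without Naringin 3. Unlike the activating receptors, it was not high in Control 3, the library with the second highest macrophage level. The ratio of summed Fcgr1, Fcgr3 and Fcgr4 to Fcgr2b, the balance of activating to inhibitory receptor reads, was 1.21, 0.816 and 0.486 with naringin and 0.794, 0.507 and 1.38 in Control. It averaged 0.838 ± 0.364 and 0.892 ± 0.443 (SD, n = 3 each), so the group means differed by less than the spread.

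Of the B cell receptors, Fcer2a, Fcmr and Fcrl1 varied less between libraries than the myeloid group, with spans of 1.36-fold, 1.30-fold and 1.43-fold. The low gene Fcrl5 spanned 2.06-fold, against 2.00-fold for Fcer1g. Fcer2a had 390 CPM in Naringin 1, 484 CPM in Naringin 2 and 466 CPM in Naringin 3, against 459, 530 and 399 CPM in Control 1, 2 and 3. The groups overlapped, the log2 fold was -0.05 ± 0.16 (SE) with an interval of -0.40 to 0.31, and its sign turned without Control 2 (0.05) and without Naringin 1 (0.05). Fcmr had 285, 350.2 and 339 CPM with naringin and 269.6, 307 and 326 CPM in Control. Its log2 fold was 0.11 ± 0.14 (SE), with an interval of -0.21 to 0.43, and the lowest libraries were Control 1 and Naringin 1.

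Fcrl1 and Fcrl5 were the 2 members in which every naringin library lay above every control library, a pattern seen in 3.36% of tested genes. Fcrl1, a B cell surface protein that enhances B cell receptor signalling, had 150.4, 187 and 172 CPM with naringin, against 131, 149 and 138.5 CPM in Control. Naringin 1 exceeded Control 2 only narrowly. The log2 fold was 0.28 ± 0.13 (SE), with an interval of -0.03 to 0.58 and a limma unadjusted p of 0.068. Fcrl5, which marks marginal zone and B1 cells in the mouse, had 9.92, 9.75 and 8.05 CPM with naringin, against 4.82, 7.66 and 6.42 CPM in Control. These values rest on 148, 146 and 115 reads with naringin and on 63, 106 and 96 reads in Control. The log2 fold was 0.50 ± 0.20 (SE), with an interval of 0.04 to 0.97 and a limma unadjusted p of 0.0376, and it was 0.35 without Control 1. Leaving out Control 1 gave an unadjusted limma p of 0.14, leaving out Naringin 1 or Naringin 2 gave 0.10 or 0.11, and the replicate number as a block gave 0.065. Neither gene passed the adjusted threshold. In 0 members did every naringin library lie below every control library, against 2.29% of tested genes.

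**Figure D3:**
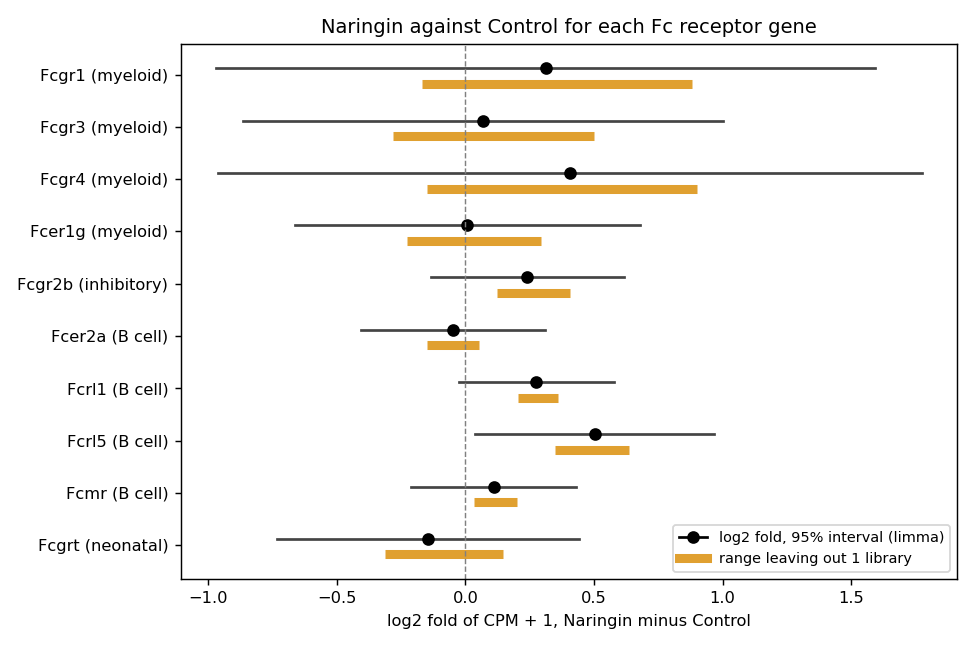
Log2 fold of CPM + 1, naringin minus control, for each member, as a point with its 95% limma interval and, in the band under it, the range when each of the 6 libraries is left out in turn. The bands of the 4 genes of the myeloid group and of Fcer2a and Fcgrt cross 0, and those of Fcgr2b, Fcrl1, Fcrl5 and Fcmr stay above it.

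None of the B cell markers passed. All 10 of them, among them Ms4a1, Cd79a, Cd79b, Pax5 and Bank1, had a log2 fold above 0, with a median of 0.19, as had Fcrl1, Fcrl5 and Fcmr but not Fcer2a. Their summed level was 3766, 4608 and 4555 CPM in Naringin 1, 2 and 3, and 3710, 4134 and 3704 CPM in Control 1, 2 and 3, and the groups overlapped. Ms4a1 (CD20) had a log2 fold of 0.31 and Bank1, a B cell signalling scaffold, one of 0.29. Relative to these markers, the 4 B cell receptors summed to a ratio of 0.222, 0.224 and 0.216 with naringin, against 0.233, 0.240 and 0.235 in Control. Fcer2a, the most abundant of the 4, had a ratio of 0.104, 0.105 and 0.102 with naringin, below its 0.124, 0.128 and 0.108 in Control, a pattern seen in 7.69% of tested genes. Fcrl1 had 0.0399, 0.0406 and 0.0377 with naringin, above its 0.0353, 0.0361 and 0.0374 in Control, which held in 0.383% of tested genes. The ratios of Fcrl5 and Fcmr overlapped between groups. These ratios were formed after the values were seen and were not tested. With the B cell marker level as a covariate, the log2 fold of Fcer2a was -0.26 and that of Fcrl1 0.18, and 0 members passed.

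The comparison of myeloid with B cell receptors showed no shift between groups beyond the spread. The summed CPM of the myeloid group was 228, 149.6 and 92.0 with naringin and 129, 96.5 and 209.8 in Control. That of Fcer2a, Fcrl1, Fcrl5 and Fcmr was 835, 1031 and 986 CPM with naringin, against 865, 994 and 869.7 CPM in Control. The ratio of the first sum to the second was 0.273, 0.145 and 0.0934 in Naringin 1, 2 and 3, and 0.149, 0.0971 and 0.241 in Control 1, 2 and 3. On the log2 scale this ratio averaged -2.69 ± 0.78 with naringin and -2.72 ± 0.66 in Control (SD, n = 3 each), a difference of 0.03. Leaving out single libraries moved that difference between -0.38 without Naringin 1 and 0.39 without Naringin 3. The sums are led by the most abundant genes, Fcer1g in the myeloid group and Fcer2a in the other.

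**Figure D4:**
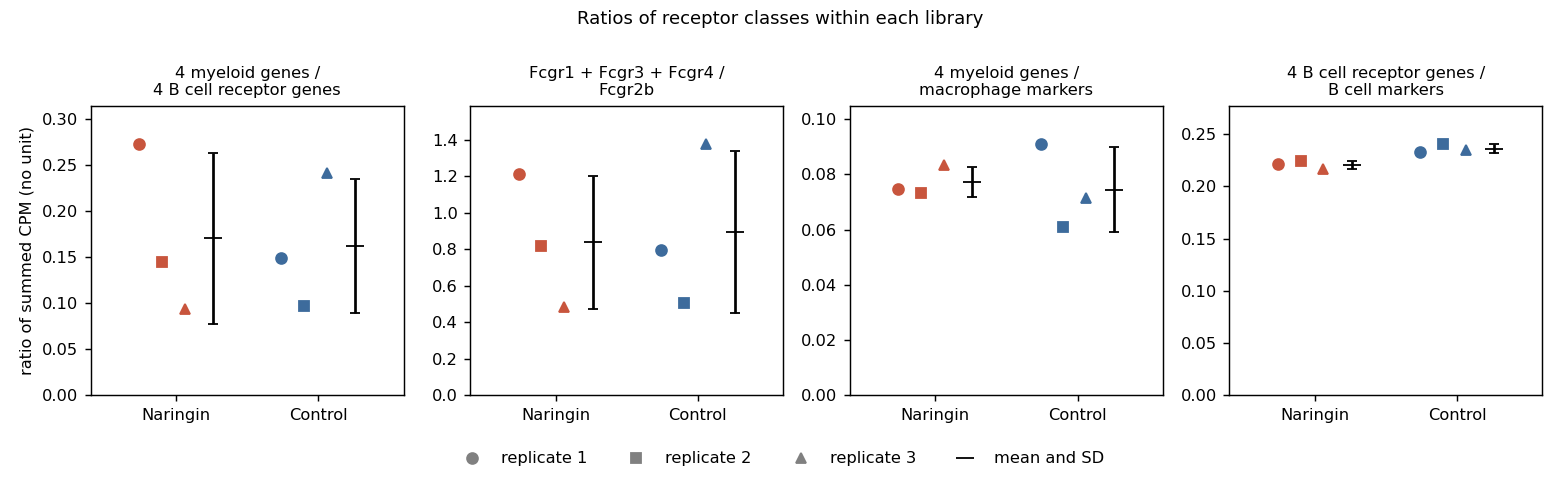
Ratios of summed CPM within each library, Naringin left and Control right, with the mean and SD of 3 libraries and axes from 0: the myeloid group to the B cell receptors, Fcgr1, Fcgr3 and Fcgr4 to Fcgr2b, the myeloid group to macrophage markers, and the B cell receptors to B cell markers. Groups overlap in the first 3 panels. In the last the naringin libraries (0.216 to 0.224) lie below the control libraries (0.233 to 0.240), as did 7.69% of single tested genes. Of the genes summed there, Fcer2a lay below, Fcrl1 above, and Fcrl5 and Fcmr overlapped.

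Fcgrt had 104, 84.3 and 71.2 CPM with naringin, against 74.9, 79.4 and 142 CPM in Control. Control 3 stood well above the rest, and the log2 fold of -0.15 ± 0.26 (SE), with an interval of -0.73 to 0.44, was 0.15 without that library. The next highest was Naringin 1, as in Fcer1g. In Fcgr1, Fcgr3 and Fcgr4, Naringin 1 was highest and Control 3 came next. Its partner chain B2m averaged 2618 ± 232 CPM with naringin and 2746 ± 331 CPM in Control (SD, n = 3 each), with Control 3 again highest.

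By the root-mean-square difference of centred log2(CPM + 1) over the 6 libraries, Fcgr1 and Fcgr4 were each other's nearest member, at 0.28. Fcer1g and Fcgrt were likewise nearest to each other, at 0.15, and Fcrl1 and Fcmr at 0.11. Fcgr3 lay closest to Fcer1g and Fcrl5 to Fcrl1. Fcgr2b and Fcer2a were like no other member: their nearest members, Fcrl1 at 0.24 and Fcmr at 0.18, lay farther off than each gene's own spread about its mean, 0.21 for Fcgr2b and 0.15 for Fcer2a. Among all other tested genes the closest to Fcgr1 was Hmox1, the haem-degrading enzyme of macrophages, at 0.13, and the closest to Fcgr3 was Cd300a, an inhibitory receptor of myeloid cells, at 0.035. The closest to Fcrl1 was Cxcr5, the receptor that guides B cells into follicles, at 0.046, and the closest to Fcmr was Dok3, an adaptor of B cell receptor signalling, at 0.024. For Fcgr2b it was Sdcbp, at 0.037, for Fcgr4 Gm5150, at 0.19, and for Fcer1g Rab13, at 0.050. For Fcer2a it was Zfp119b, at 0.022, for Fcrl5 Slc10a6, at 0.068, and for Fcgrt Tmem176a, at 0.033. Every member had tested non-members nearer to it than its nearest member, from 11 genes for Fcgr4 to 3998 for Fcgr2b. Likeness over 6 libraries is a description and was not tested.

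The other Fc receptor genes gave no calls. Of 10, 9 were tested, with 5 higher, 4 lower and 0 passing. Fcrla, an intracellular relative found in B cells, averaged 121 ± 12.9 CPM with naringin and 107 ± 2.07 CPM in Control (SD, n = 3 each), a log2 fold of 0.17. Fcrlb had a log2 fold of -0.28 at 1.61 to 3.59 CPM. Fcer1a, the IgE-binding chain of mast cells and basophils that pairs with Fcer1g, had 7.24, 7.28 and 0.700 CPM with naringin. In Control it had 1.68, 1.30 and 5.68 CPM, so it was high in the same libraries as the summed mast cell markers. Of the 8 heavy chain constant genes that make the ligands, 7 are listed at 0 in every library. Igha lay between 0.940 and 2.20 CPM. Trac, the constant gene of a T cell receptor chain, is also listed at 0 in every library, while Cd3e lay between 156 and 248 CPM. The zeros of these constant genes are not read here as absent RNA, and their cause was not tested.

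Signalling genes downstream of the receptors likewise gave no calls. Of 20 activating signalling genes, 16 had a log2 fold above 0 and 4 below, with a median of 0.10, and 0 passed. In 3 of the 20 the groups did not overlap, against 3.36% of tested genes higher and 2.29% lower. Btk, the kinase that couples B cell and Fc receptors to calcium signalling, averaged 107 ± 11.2 CPM with naringin and 85.0 ± 11.6 CPM in Control (SD, n = 3 each). Its log2 fold was 0.33 ± 0.15 (SE), with a limma unadjusted p of 0.0539. Lyn, the kinase that phosphorylates both kinds of receptor tail, had 275, 256 and 181 CPM with naringin and 191, 187 and 187 CPM in Control. Syk, which docks on the gamma chain, averaged 398 ± 16.3 CPM with naringin and 345 ± 51.4 CPM in Control. Of 10 inhibitory genes 5 were higher and 5 lower, with a median of 0.0015. The smallest p belonged to Inppl1 (SHIP-2), with a log2 fold of -0.16, and Dok3, with 0.14. Inpp5d (SHIP-1), the phosphatase that Fcgr2b recruits, averaged 229 ± 9.54 CPM with naringin and 230.0 ± 34.0 CPM in Control. Ptpn6 (SHP-1), a phosphatase of other inhibitory tails, averaged 703 ± 35.1 CPM with naringin and 664 ± 10.4 CPM in Control.

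Of 10 genes for other receptors that use the gamma chain, or for related adaptor chains, 8 were tested, with 6 higher, 2 lower and 0 passing. Clec4n (dectin-2), a fungal receptor that signals through Fcer1g, had 162, 113 and 37.1 CPM with naringin, against 70.3, 44.7 and 127 CPM in Control. The adaptor Tyrobp (DAP12) had 222, 171 and 108 CPM with naringin, against 142, 126 and 226 CPM in Control. Both were highest in Naringin 1 and Control 3, as were the genes of the myeloid group, and both were named after their values were seen. The other 6 tested genes did not share that order. Ncr1, a natural killer cell receptor, was lowest in Control 3 at 4.01 CPM, and Hcst (DAP10), an adaptor chain, was lowest in Naringin 1 at 46.3 CPM. Clec4d, a relative of Clec4n, had the smallest p of the list, with a log2 fold of 0.70 at 2.87 ± 1.53 CPM with naringin and 1.34 ± 0.669 CPM in Control, and Cd247, the T cell receptor zeta chain, had -0.21.

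Of 4 genes listed as partners of CD23 or as its protease, all 4 had a log2 fold above 0 and 0 passed. Cr2 (CD21) is a ligand of CD23 in human and a marker of B cells and follicular dendritic cells. It had 185, 222 and 163 CPM with naringin and 174, 219 and 75.7 CPM in Control, a log2 fold of 0.40 in which Control 3 was low. Adam10, the protease that sheds CD23 from the cell surface, averaged 117 ± 11.1 CPM with naringin and 112 ± 18.9 CPM in Control.

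Fcgr1 is known to be induced by interferon gamma, so a list of 12 genes of that response was set beside it. Of the 11 tested, 10 had a log2 fold above 0 and 1 below, with a median of 0.15, and 0 passed. Cxcl10, a chemokine for T cells, had 44.7, 37.5 and 14.0 CPM with naringin and 17.0, 8.75 and 17.6 CPM in Control, a log2 fold of 1.00 ± 0.43 (SE) and a limma unadjusted p of 0.0451. Its groups overlapped through Naringin 3, and Naringin 1 was its highest library, as for Fcgr1. Gbp5, an interferon-induced GTPase, had a log2 fold of 0.21 ± 0.16 (SE).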

How the data were processed

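Per the submitters' processing notes, the authors' tools were edgeR 3.40.0, STAR 2.7.9a, Trimmomatic 0.39 and featureCounts (Subread 1.6.0), and the build was mm39. No annotation or strand setting is named in the sources used here, so overlapping and antisense genes cannot be told apart. The authors deposited CPM, which sum to 1000000 in each library. All values above 0 (100%) were whole reads within 0.01 of a read.

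The 14873 genes that averaged 1 CPM or more were tested on log2(CPM + 1) with limma 3.58.1 in R 4.3.3, with trend and robust moderation, 2-sided, Benjamini-Hochberg adjusted. edgeR 4.0.16 (quasi-likelihood) and DESeq2 1.42.0 were run on recovered reads. The fits were tested on simulated data. No pair of libraries was alike within sampling noise (chi-square per degree of freedom 7.68 to 61.6, the highest in pairs with Control 3).

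The members and lists were chosen with earlier results of these data known. All members are named, with the 2 genes of smallest p in each pathway and marker list, the receptors' direct partners, and the nearest genes by likeness. A gene that this rule names is not reported here. Fcer1a, Clec4n, Tyrobp and the low markers were chosen after their values were seen. Exon lengths come from GENCODE M21. The fit without Control 3 and Naringin 1 and those with marker covariates were added after seeing the data.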

Additional observations from a re-analysis of the deposited data

How the results depend on the processing

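The count of members called was 0 under all 20 alternatives. The count of all genes called was 0 with the 6 libraries except for DESeq2 (3), ran from 0 to 1 when single libraries were left out, with 1 without Control 3, and was 2 without both Control 3 and Naringin 1, a setting chosen after seeing the data. No called gene was a member. The folds of Fcgr2b, Fcrl1, Fcrl5 and Fcmr kept their direction under all alternatives, and their ranges were 0.09 to 0.41, 0.18 to 0.36, 0.35 to 0.64 and 0.03 to 0.26.

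Directions turned as follows. Fcer1g was at -0.036 under upper-quartile scaling, -0.0095 under median-of-ratios scaling, -0.027 in edgeR and -0.039 in DESeq2. Without single libraries the lowest and highest folds were -0.17 and 0.88 for Fcgr1, -0.28 and 0.50 for Fcgr3, -0.15 and 0.90 for Fcgr4, -0.23 and 0.29 for Fcer1g, -0.15 and 0.055 for Fcer2a, and -0.31 and 0.15 for Fcgrt. Fcgrt was at 0.0058 without Control 3 and Naringin 1 and at 0.23 with the B cell marker covariate. That covariate gave 1.11 for Fcgr1, 1.42 for Fcgr4, 0.65 for Fcgr3 and 0.48 for Fcer1g. The unadjusted limma p was 0.0497, 0.00496, 0.0968 and 0.0403 in that order, and the adjusted p was 0.99 for each. With that covariate 451 of all 14873 tested genes had an unadjusted limma p under 0.05, against 213 without it. The cause was not tested. The log2 ratio of myeloid to B cell receptors differed by -0.0022 with medians in place of sums and by -0.05 without Control 3 and Naringin 1.

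With the replicate number as a block, 0 genes and 0 members passed and every fold was as without it. Same-numbered libraries did not deviate together (correlations of -0.26, -0.02 and -0.27), so the numbers were not taken as pairs. Fcgr4, with 22 reads in its shallowest library, and Fcrl5, with 63, have the fewest reads of the members.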

Other observations

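Markers of other cells that could carry or hold these receptors gave no calls in limma either. All 7 tested T cell markers had a log2 fold below 0, with a median of -0.24, led by Cd5 at -0.40 and Cd6 at -0.29. Of 6 natural killer cell markers, 5 were above 0, led by Gzma at 0.48 and Eomes at 0.30. All 4 tested follicular dendritic cell markers were above 0. Among them Cxcl13, the chemokine that draws B cells into follicles, had 360, 383 and 255 CPM in Naringin 1, 2 and 3, against 137, 197 and 226 CPM in Control 1, 2 and 3, and Mfge8 had a log2 fold of 0.21. Of 6 endothelial markers 4 were above 0. Glycam1 had 357, 373 and 481 CPM with naringin, against 159, 265 and 259 CPM in Control, with a log2 fold of 0.85, and that of Lyve1 was 0.44.

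Of 7 dendritic cell markers 5 were below 0, with Cd209a at -0.55 and Itgax at -0.18. Of the 5 tested plasma cell markers 3 were below 0, with Prdm1 at -0.27 and Xbp1 at 0.13. Of 5 monocyte markers 4 were above 0, with Plac8 at 0.44 and Ccr2 at 0.30. All 6 tested neutrophil markers were above 0, with Cxcr2 at 0.48 and Mmp8 at 0.55. Of the 9 tested macrophage markers 6 were below 0, with Cd68 at -0.20 and Siglec1 at 0.31. Of 5 mast cell markers 3 were below 0, with Tpsb2 at -0.13 and Kit at 0.23. All 4 tested adipocyte markers were below 0, with Cfd at -0.94 and Car3 at -0.85.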
